A study of Homo sapiens with 6 samples.

Results

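The genes described here are 10 angiogenic factors and receptors, picked by symbol from the 27754 genes counted in T47D cells: VEGFA, VEGFB, VEGFC, PGF, ANGPTL4, ADM, EDN1, PDGFB, NRP1 and NRP2. All of them were found in the files. T47D is an established luminal breast cancer cell line, grown here in adherent culture in RPMI with 10% FBS. mRNA sequencing covered 3 libraries labelled Control (20% O2), called normoxia, and 3 labelled Hypoxia (0.5% O2, 48 hours), called hypoxia, and the published text names a different O2 level for hypoxia than the labels do. No genetic change or drug separated the groups. As a model, this was 1 cell line cultured without endothelial cells, so the data bear on mRNA in tumour cells and not on vessels. These libraries do not measure secreted protein.

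Angiogenesis is the growth of new vessels from existing ones. When O2 is scarce, the hypoxia-inducible factors HIF-1 and HIF-2 escape degradation, bind short DNA elements near their target genes and raise transcription. The best known target in tumours is VEGFA, a secreted growth factor that acts on endothelial cells through the receptor tyrosine kinases FLT1 (VEGFR1) and KDR (VEGFR2), with the neuropilins NRP1 and NRP2 as co-receptors. VEGFB and PGF (placental growth factor) bind FLT1, and VEGFC acts mainly through FLT4 (VEGFR3) on lymphatic vessels. Outside this family, ANGPTL4 is a secreted inhibitor of lipoprotein lipase that also acts on vessels, ADM encodes the vasodilator peptide adrenomedullin, EDN1 the vasoconstrictor endothelin 1, and PDGFB the platelet-derived growth factor chain that recruits pericytes.

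Hypoxia-inducible factors recognise a core written ACGTG or GCGTG, so the sequence just before the start site is shown for members with large and small changes. RefSeq windows of 250 bases before and 50 after an annotated start (build GRCh38.p14) were found for 7 of the 10 members, and VEGFA, PDGFB and NRP1 were not matched. At least 1 of the cores, on either strand, was present in a window of 6 of these 7 genes, compared with 48.4% of all 34796 distinct windows of this length. ACGTG was in 21.4% of windows and GCGTG in 36.4%, with windows that hold both counted in each. EDN1 has 3 annotated starts and PGF has 2, which gives them more windows to match. The 250 upstream bases are printed below for ANGPTL4 (chr19:8363905-8364154, plus strand), ADM (chr11:10304823-10305072, plus strand), VEGFB (chr11:64234334-64234583, plus strand) and the most downstream start of EDN1 (chr6:12290111-12290360, plus strand). Capitals mark the cores, which read CACGT where ACGTG lies on the other strand.
ANGPTL4: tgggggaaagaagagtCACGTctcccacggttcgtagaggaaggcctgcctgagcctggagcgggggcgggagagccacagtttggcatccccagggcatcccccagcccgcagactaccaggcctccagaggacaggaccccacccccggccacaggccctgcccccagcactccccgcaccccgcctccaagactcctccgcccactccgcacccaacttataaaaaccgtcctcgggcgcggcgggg
ADM: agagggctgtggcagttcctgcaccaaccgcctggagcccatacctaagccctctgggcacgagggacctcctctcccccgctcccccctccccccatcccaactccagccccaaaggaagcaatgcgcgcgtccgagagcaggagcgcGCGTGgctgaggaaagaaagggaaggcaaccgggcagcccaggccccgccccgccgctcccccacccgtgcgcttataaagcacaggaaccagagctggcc
VEGFB: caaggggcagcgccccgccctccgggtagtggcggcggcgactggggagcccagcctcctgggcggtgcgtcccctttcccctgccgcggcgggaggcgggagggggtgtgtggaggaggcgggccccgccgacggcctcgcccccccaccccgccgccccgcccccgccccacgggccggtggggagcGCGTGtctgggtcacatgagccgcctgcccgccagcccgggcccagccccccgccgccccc
EDN1: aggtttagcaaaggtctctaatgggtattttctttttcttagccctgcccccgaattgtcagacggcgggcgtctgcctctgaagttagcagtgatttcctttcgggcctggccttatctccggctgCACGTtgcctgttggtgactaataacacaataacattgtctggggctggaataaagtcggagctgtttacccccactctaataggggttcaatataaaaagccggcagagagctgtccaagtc

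Counted from the start site, the first of the 5 bases in capitals, read in the direction of the gene, was at -234 in ANGPTL4, -101 in ADM, -61 in VEGFB and -123 in this EDN1 window. The most upstream EDN1 start had ACGTG at -240 and -93 and GCGTG at -47. VEGFC had GCGTG at -59. In PGF 1 GCGTG site fell in both windows, at 6 bases into the transcript from one start and at -162 from the other. NRP2 had no match in its window. Genes with cores included both ANGPTL4, among the largest changes in hypoxia, and EDN1, the smallest. The part of a core in the size of a change was not tested, and VEGFA, PDGFB and NRP1 had no window.

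Library totals ran from 32989104 to 40943424 counts, except for hypoxia replicate 3, with 89883409, and 3 counts corresponded to 0.0328 to 0.0969 CPM (counts scaled to the TMM-normalized library size), a floor that covers counting error only. All 7 luminal markers fixed for T47D were present, at a summed 9184 to 16606 CPM, although 3 of them (ESR1, GATA3 and FOXA1) were lower in hypoxia. The sums of the other marker lists were higher in hypoxia, except for fibroblast and pericyte markers. Of 11 markers of basal or mesenchymal tumour lines, 10 were tested, 4 were higher and 0 lower. Beside these counts, 30.4% of all tested genes were higher and 29.1% lower. The 11 markers summed to 297 to 309 CPM in normoxia and 432 to 525 CPM in hypoxia. Among 9 endothelial markers only ESAM could be tested and was higher, with sums of 3.14 to 3.70 and 5.48 to 9.07 CPM, while in any library PECAM1, VWF, CLDN5, EMCN and TEK had at most 5, 10, 1, 1 and 2 counts and ROBO4 at most 16. CDH5 had 0 to 0.258 CPM in normoxia and 0.164 to 0.350 CPM in hypoxia (at most 32 counts), and KDR 0 to 0.0323 and 0.0741 to 0.219 CPM (at most 13 counts). The 5 leukocyte markers summed to 1.94 to 2.61 and 8.77 to 10.8 CPM, with CD68 and ITGAM higher and PTPRC at 0 in every normoxia library and at most 5 counts in hypoxia. ITGAM, at 11, 10 and 3 counts in normoxia, could not have passed the filter on low counts through those libraries alone. A lower call was thus hardly possible for ITGAM. The 7 fibroblast and pericyte markers stayed between 80.4 and 103 CPM in all libraries, nearly all of it COL1A1, PDGFRB was higher, and PDGFRA was at 0 throughout. Replicate 3 stood apart in both conditions. Its chi-square per degree of freedom against replicates 1 and 2 was 36.6 and 49.9 in normoxia and 60.5 and 72.6 in hypoxia. Between replicates 1 and 2 it was 8.47 and 6.38. Markers of basal or mesenchymal lines differed in direction. For VIM the normoxia libraries held 7, 12 and 395 counts and the hypoxia libraries 35, 35 and 1001. CD44 was lowest in replicate 3 of each condition, at 42 against 62.4 and 78.4 CPM and at 63.2 against 87.5 and 106 CPM. The part of these markers in the results below was not tested, and for the genes named below a call that changed without replicate 3 is given beside the result.

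To ask how angiogenic genes respond to low O2, hypoxia was compared with normoxia in edgeR's quasi-likelihood test over all 15657 genes with enough counts. All 10 members passed the filter on low counts, and all 10 were called higher in hypoxia, with 3 libraries in each condition and a threshold of 0.05 on the adjusted p. The filter asks for enough counts in at least 3 libraries. PGF and NRP2 met it only through their hypoxia libraries, so a lower call was hardly possible for either. In bulk samples like these, more cells with a transcript and more of it per cell cannot be told apart. Across all tested genes, 30.4% were higher and 29.1% lower, so calls in either direction were common in these data. At a log2-fold change of at least 1, 8 of the 10 members were higher, compared with 15.2% of all tested genes. The median log2-fold change was 2.43 over the members and 0.028 over all tested genes. The members were chosen with earlier results of these data known, so these comparisons describe them and test nothing. In every member the lowest hypoxia library lay above the highest normoxia library, which was also true of 34.9% of all tested genes. Of all called genes 51.1% were higher, and 64.5% were with upper-quartile factors, which raised the median of all genes by 0.157 and left all 10 members higher.

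**Figure D1:**
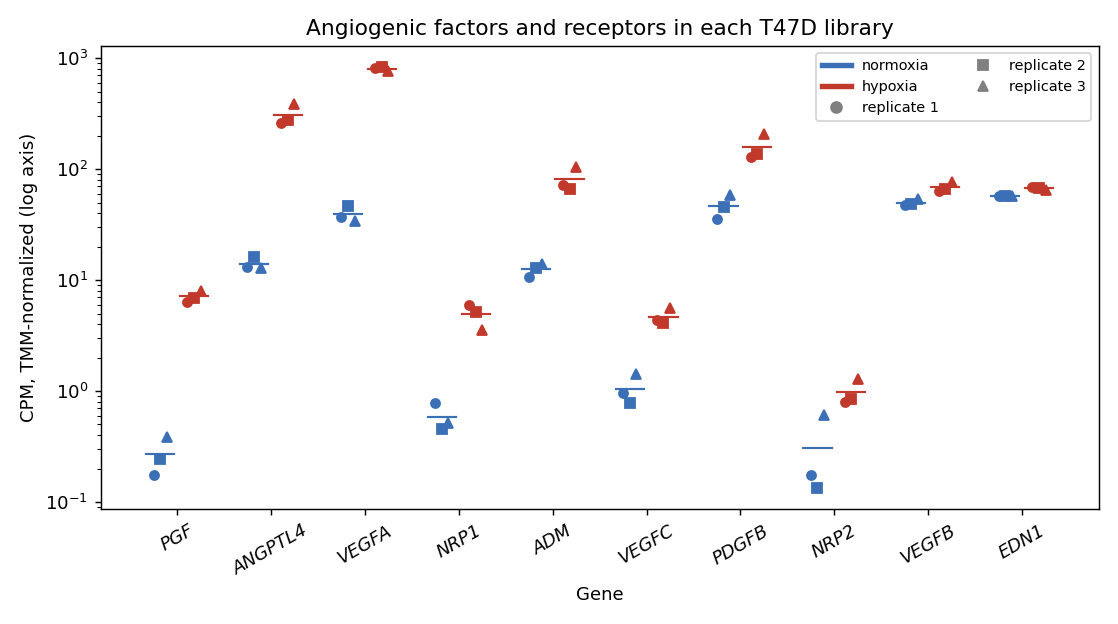
Expression of the 10 genes in each library, as TMM-normalized CPM on a log axis, ordered by log2-fold change. Points are single libraries with a marker for each replicate number, and horizontal lines are means of 3 libraries. The conditions are separated by a wide gap for PGF, ANGPTL4 and VEGFA, and by a narrow one for NRP2, VEGFB and EDN1.

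VEGFA (GRCh37 chr6:43737946-43754223, plus strand) was the most abundant member in hypoxia. Its levels were 36.7, 46.5 and 34.2 CPM in normoxia replicates 1, 2 and 3 and 813, 834 and 764 CPM in hypoxia replicates 1, 2 and 3. Every hypoxia library exceeded every normoxia library by at least 16.4-fold, and the 3 hypoxia libraries lay close together. The change was 20.5-fold (95% interval 16.5 to 25.4), rank 147 of 15657 by log2-fold change (adjusted p = 5.16e-06). Scaled by its 3778 counted bases, VEGFA moved from rank 6326 to rank 193 among tested genes, at 10.4 ± 1.72 in normoxia and 213 ± 9.47 in hypoxia in RPKM, which is CPM per kilobase of counted exon (SD, n = 3).

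PGF, a FLT1 ligand first found in placenta (chr14:75408533-75422467, minus strand), had the largest fold change of the 10 genes from a very low start. It had 7, 9 and 12 counts in the normoxia replicates, or 0.177, 0.242 and 0.388 CPM, and 257, 255 and 736 counts in hypoxia, or 6.35, 6.97 and 8.05 CPM. This was a rise of 26.9-fold (interval 17.3 to 41.8, adjusted p = 3.90e-05). The interval is wider than that of VEGFA, and it overlaps it. Even in hypoxia PGF was scarce, at 3.73 ± 0.451 RPKM against 213 ± 9.47 RPKM for VEGFA.

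VEGFC, the lymphatic growth factor (chr4:177604685-177713899, minus strand), rose from 0.963, 0.779 and 1.42 CPM to 4.35, 4.10 and 5.65 CPM. On the log2 scale this was 2.17 (standard error, SE, 0.26, adjusted p = 3.86e-04), or 4.50-fold. Replicate 3 was the highest library in both conditions, by 0.71 and 0.42 on the log2 scale over the mean of the other two.

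VEGFB (chr11:64002056-64006736, plus strand), a family member linked to fatty acid uptake and survival of vessels rather than their growth, had a change of under 2-fold. Its levels were 47.8, 48.6 and 53.4 CPM in normoxia and 63.8, 66.3 and 76.4 CPM in hypoxia. The groups did not overlap, but the lowest hypoxia library was only 1.2-fold above the highest normoxia library. The log2-fold change was 0.46 (SE 0.096, adjusted p = 0.00408), and it missed the threshold without both libraries numbered 1 (0.49, adjusted p = 0.0508).

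The shares of the VEGF ligands did not overlap between the conditions for VEGFA, VEGFB and PGF, and overlapped for VEGFC. Of the summed RPKM of VEGFA, VEGFB, VEGFC and PGF, VEGFB made up 71.5% ± 3.58 in normoxia and 14.9% ± 1.70 in hypoxia (SD, n = 3). VEGFA went from 26.8% ± 4.05 to 82.8% ± 2.06. The family total was 38.7 ± 1.65 RPKM in normoxia and 257 ± 5.82 RPKM in hypoxia, so the falling share of VEGFB came with a higher level of its mRNA. PGF went from 0.361% ± 0.136 to 1.45% ± 0.197, and PGF and VEGFC never exceeded 1.72% of the total in any library. The ratio of VEGFA to VEGFB per length was 0.367, 0.458 and 0.307 in the normoxia replicates and 6.09, 6.01 and 4.78 in hypoxia, a difference of 3.91 on the log2 scale. An exact permutation test gave p = 0.1 (two-sided), the smallest that 3 libraries against 3 allow.

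ANGPTL4 (chr19:8429011-8439259, plus strand) had a fold change whose interval overlapped that of VEGFA. It was at 13.2, 16.2 and 12.9 CPM in normoxia and 262, 278 and 385 CPM in hypoxia. The change was 21.8-fold (interval 16.3 to 29.3, adjusted p = 1.42e-05), rank 132 of all tested genes. In hypoxia, replicate 3 lay 0.51 above the mean of the other two libraries on the log2 scale, whereas in normoxia it lay 0.19 below it.

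ADM, the source of adrenomedullin (chr11:10326527-10328949, plus strand), was at 10.6, 13.0 and 14.1 CPM in normoxia and 71.3, 66.7 and 105 CPM in hypoxia. This was a 6.48-fold rise (interval 4.72 to 8.89, adjusted p = 6.44e-05). ANGPTL4 and ADM started from overlapping levels per length, at 7.41 ± 0.952 and 7.88 ± 1.13 RPKM, and ended apart, at 162 ± 35.1 and 50.9 ± 13.1 RPKM. The ratio of ANGPTL4 to ADM was 0.766 to 1.04 in the normoxia libraries and 3.06 to 3.48 in the hypoxia libraries.

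EDN1 (chr6:12290529-12297427, plus strand) had the smallest change. Its normoxia libraries were almost identical at 56.9, 56.8 and 57.1 CPM, and its hypoxia libraries were at 69.5, 67.9 and 65.5 CPM. Endothelin 1 mRNA was thus 1.19-fold higher (interval 1.06 to 1.33, adjusted p = 0.016). The call rested on all the libraries numbered 1 and 2: without normoxia replicate 1 or 2 the adjusted p was 0.079 or 0.0624, and without hypoxia replicate 1 or 2 it was 0.0758 or 0.0544, at log2-fold changes of 0.23 to 0.24. Without replicate 3 of both conditions it was 0.00146.

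PDGFB, the pericyte-recruiting factor (chr22:39619364-39641060, minus strand), rose 3.38-fold (interval 2.34 to 4.89, adjusted p = 5.29e-04). Its levels were 35.9, 45.9 and 58.4 CPM in normoxia and 129, 136 and 208 CPM in hypoxia. Replicate 3 was again the highest library of each condition. Within same-numbered pairs the log2 ratio was much steadier than the levels, between 1.57 and 1.84.

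The co-receptors had the lowest mean RPKM of the 10 genes in both conditions, although NRP1 overlapped PGF in normoxia. NRP1 (chr10:33466419-33623833, minus strand), which presents VEGFA to KDR and also binds semaphorins, had 31, 17 and 16 counts in normoxia and 243, 190 and 326 in hypoxia. In CPM this was 0.785, 0.457 and 0.517, and 6, 5.19 and 3.57. NRP1 rose 8.26-fold (interval 5.10 to 13.4, adjusted p = 1.79e-04), with replicate 3 the lowest hypoxia library. Its highest library reached 1.02 RPKM.

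NRP2 (chr2:206547224-206662857, plus strand), a co-receptor for VEGFC and class 3 semaphorins, had the largest standard error of the 10 genes. It had only 7, 5 and 19 counts in normoxia and 32, 31 and 118 in hypoxia, or 0.177, 0.134 and 0.614 CPM and 0.791, 0.847 and 1.29 CPM. Normoxia replicate 3 lay close under the hypoxia libraries. The log2-fold change was 1.74 (SE 0.52, adjusted p = 0.0209). It was 2.65 without normoxia replicate 3 and 2.37 without replicate 3 of both conditions, with adjusted p of 0.00163 and 1.08e-04. The call was lost when normoxia replicate 1 (adjusted p = 0.0826), normoxia replicate 2 (0.066) or hypoxia replicate 3 (0.0568) was left out. VIM was highest in normoxia replicate 3, at 12.8 CPM against 0.177 and 0.322 CPM, whereas CD44 was lowest there, at 42 against 62.4 and 78.4 CPM. The part of these markers in the NRP2 value was not tested.

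NRP1 exceeded NRP2 per length in every library. The ratio was 5.78, 4.44 and 1.10 in normoxia and 9.91, 8 and 3.61 in hypoxia, so the groups overlapped, although hypoxia was higher within each of the 3 same-numbered pairs. A difference of 1.11 on the log2 scale did not pass an exact permutation test (two-sided p = 0.3, with 0.1 the smallest possible). An exact sign-flip test over the pairs gave p = 0.25, its smallest possible value, and the difference was 0.38 without normoxia replicate 3.

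**Figure D2:**
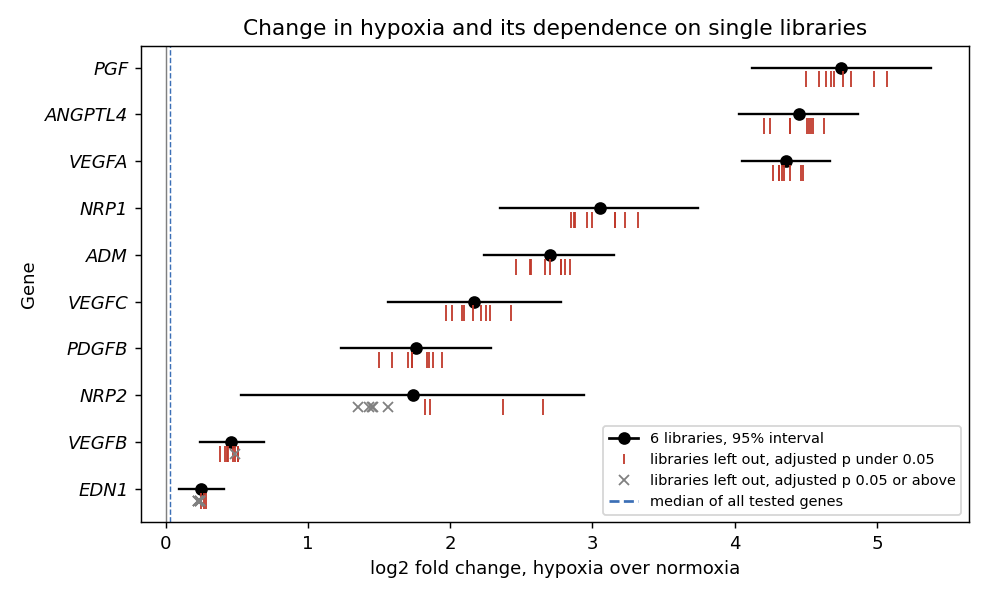
Log2-fold change of each gene, hypoxia over normoxia, with its 95% interval from all 6 libraries (black) and the values with 1 library or 1 replicate number left out (below each interval). Crosses, where the adjusted p was 0.05 or above, occur for NRP2, VEGFB and EDN1 alone among the 10 genes, and the dashed line is the median of all tested genes at 0.028.

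Per length, the order of the members changed with O2. In normoxia VEGFB (27.7 ± 1.67 RPKM) and EDN1 (27.1 ± 0.0752 RPKM) led and overlapped each other, followed by PDGFB (12.1 ± 2.92) and VEGFA (10.4 ± 1.72), which also overlapped, and then by ADM and ANGPTL4. VEGFC came next at 0.505 ± 0.158 RPKM. PGF, NRP1 and NRP2 were last, each overlapping the next in order, at 0.141, 0.0992 and 0.0400 RPKM. In hypoxia VEGFA and ANGPTL4 led. ADM (50.9 ± 13.1), PDGFB (40.9 ± 11.4) and VEGFB (38.1 ± 3.70) followed with overlapping libraries, and EDN1 was sixth in order at 32.2 ± 0.949 RPKM. The last places went to PGF, VEGFC, NRP1 and NRP2, with no overlap between neighbours. The members with the steepest rises did not share a starting level, since PGF began at 0.141 RPKM and VEGFA at 10.4 RPKM.

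Over the 6 libraries, the pattern of VEGFA was compared with 12664 other genes that had a mean of at least 100 counts, by the distance between log2 CPM values taken relative to the normoxia mean. The nearest was NDRG1, a stress-responsive gene, at a distance of 0.29, which went from 23.0 to 476 CPM. DDIT4, an inhibitor of mTORC1 signalling, followed at 0.43, and then SERPINE2 (0.43), CLGN (0.49) and SLITRK6 (0.52). ANGPTL4 was sixth at 0.53, and PGF was at place 20 with 0.98. The other members lay further off, from NRP1 at 2.56 to EDN1 at 7.14, and NRP2 had too few counts to enter. This describes likeness over libraries of 2 conditions only and has no test.

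Lists of other genes of these pathways held 69 genes, of which 41 had enough counts to test. In hypoxia 22 of these were higher and 8 lower, against 30.4% and 29.1% of all tested genes, and their median log2-fold change was 0.61. APLN, EPO, ANGPTL6, PDGFRB, PDGFRL, PLXNA2, RAMP2, TIMP3 and FLT1 could not have passed the filter on their normoxia libraries alone. A lower call was unlikely for them from the outset, which tilts these tallies and those of the lists below towards higher calls. ADAMTS1, called lower, was the reverse case and passed through normoxia alone. Of the 28 genes that could not be tested, many encode receptors or ligands of endothelial cells, such as KDR, TEK, TIE1, ANGPT2, CALCRL and APLNR.

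Of the VEGF receptors, 1 of the 2 tested was lower and 0 were higher, against 29.1% and 30.4% of all tested genes. FLT4, the receptor of VEGFC, fell from 52.6, 60.2 and 41.0 CPM to 19, 20.6 and 21.2 CPM, or by -1.34 on the log2 scale (SE 0.14, adjusted p = 2.26e-04). All its hypoxia libraries lay below all its normoxia libraries, and the call held in the 15 alternatives run. FLT1 was at 0.836, 0.914 and 0.194 CPM and at 1.56, 1.86 and 0.842 CPM, a difference of 1.07 on the log2 scale that did not pass (SE 0.51, adjusted p = 0.103). Its replicate 3 was the lowest library of each condition. Fitting the numbers as a block made it pass (adjusted p = 0.00498), as did leaving out hypoxia replicate 3 (1.36, adjusted p = 0.046) or replicate 3 of both conditions (0.97, adjusted p = 0.00369). FLT1 did not pass in the other 12 of the 15 alternatives. KDR, the main VEGFA receptor, had 1, 0 and 1 counts in normoxia and 3, 8 and 13 in hypoxia and was not tested, and VEGFD had at most 5 counts in any library.

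In the endothelin and adrenomedullin list, 3 of the 5 tested genes were higher and 0 lower (11 genes in all), against 30.4% and 29.1% of all tested genes. EDN2, the second endothelin, rose from 0.861, 0.806 and 0.969 CPM to 6.92, 8.23 and 8.07 CPM, or by 3.14 on the log2 scale (SE 0.17, adjusted p = 3.42e-05). The change of EDN1 was 0.25 on the same scale, and the difference between the genes was not tested. ADM2 (log2-fold change 1.32) and RAMP2, a co-receptor subunit (1.19), were the other two, and RAMP2 did not pass in 4 of the 15 alternatives, those without normoxia replicate 1, hypoxia replicate 2, or both libraries numbered 1 or 2. The converting enzymes ECE1 and ECE2 did not pass, at -0.12 and -0.50, but ECE2 passed as lower in 4 of the 15 alternatives. These were the block (adjusted p = 8.68e-04), and the fits without normoxia replicate 2, without hypoxia replicate 3 (-0.68, adjusted p = 0.0455) and without replicate 3 of both conditions (-0.38, adjusted p = 0.00521). The receptors EDNRA, EDNRB and CALCRL had at most 4, 17 and 17 counts.

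Among the other PDGF genes, 4 of 5 tested were higher and 0 lower, against 30.4% and 29.1% of all tested genes. PDGFRB and PDGFRL, among the 4, passed the filter on low counts only through their hypoxia libraries. PDGFA, the partner chain of PDGFB, went from 7.25, 6.56 and 6.33 CPM to 11.3, 10.1 and 9.26 CPM, a log2-fold change of 0.60 (adjusted p = 0.00528), a call lost without both libraries numbered 1 or both numbered 2. PDGFRB, the receptor of PDGFB, had 0, 0 and 3 counts in normoxia and 14, 18 and 28 in hypoxia. It passed (adjusted p = 0.00624), though not without both libraries numbered 1 (0.0522). PDGFRL was higher too, at 0.174 ± 0.149 and 1.33 ± 0.319 CPM, as was PDGFC (log2-fold change 0.32), which did not pass in 5 of the 15 alternatives. Only 1 angiopoietin or TIE gene of 5 was tested: ANGPT1, a ligand of TEK, fell from 17.9, 15.8 and 9.17 CPM to 8.37, 7.90 and 7.13 CPM (log2-fold change -0.88, adjusted p = 0.0123), which did not pass without both libraries numbered 1 or both numbered 2. Of the 7 other angiopoietin-like genes 1 was tested. ANGPTL6 had 1, 3 and 2 counts in normoxia and 26, 27 and 67 in hypoxia (adjusted p = 2.83e-04).

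Class 3 semaphorins and plexins, which compete for or signal with the neuropilins, moved both ways, with 3 higher and 4 lower of 11 tested and a median log2-fold change of 0.07. Calls both ways were about as common among all tested genes (30.4% higher and 29.1% lower). SEMA3F, a ligand of NRP2 that inhibits vessel growth, fell from 219, 219 and 218 CPM to 112, 101 and 132 CPM (log2-fold change -0.93, SE 0.10, adjusted p = 2.74e-04). SEMA3B, by contrast, rose from 12.4, 17.3 and 7.46 CPM to 24.4, 24.9 and 25.3 CPM (log2-fold change 1.00, adjusted p = 0.0105), and missed the threshold without both libraries numbered 1. The 7 tested inhibitors of angiogenesis, SEMA3F among them, also had calls both ways, with 2 higher and 3 lower. THBS1, thrombospondin 1, fell from 258, 265 and 174 CPM to 76.1, 68.2 and 62.7 CPM (log2-fold change -1.75, adjusted p = 1.56e-04). COL18A1, whose protein gives rise to endostatin, rose from 10.4, 13.7 and 4.26 CPM to 33.1, 32.6 and 24.0 CPM (log2-fold change 1.65, adjusted p = 0.00519).

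Other angiogenic ligands and receptors were mostly higher, 9 of 10 tested (15 genes in all), against 30.4% of all tested genes. The exception was EPHB4 (log2-fold change -0.19, adjusted p = 0.142). Of the 9, APLN and EPO passed the filter on low counts only through their hypoxia libraries. EPHB4 passed as lower with the block (adjusted p = 0.0133) and without replicate 3 of both conditions (-0.16, adjusted p = 0.0494). APLN, which encodes the peptide apelin, rose from 5 to 8 counts per normoxia library to 124, 142 and 378 counts, or from 0.134 to 0.203 CPM to 3.06, 3.88 and 4.14 CPM. On the log2 scale it rose by 4.45 (SE 0.27, adjusted p = 3.99e-05), the value also found for ANGPTL4. Its receptor gene APLNR had at most 7 counts in any library.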

How the data were processed

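Data from 6 T47D libraries were analysed, 3 per condition, grouped by GEO titles. The study describes its data as independent experiments and the hypoxia and normoxia samples as paired, and the labels do not say whether replicates were separate cultures. Per the labels and the published methods, the authors checked reads with FastQC 0.11.5, removed adapters with Skewer, aligned to GRCh37/hg19 with STAR 2.5.2a and deposited raw counts per RefSeq gene from featureCounts 1.5.1. The strand setting and the treatment of multi-mapped reads are not given in the sources used here. The counted exons of the 10 genes overlapped those of no other gene. Coordinates are the deposited ones, and gene length (another deposited value) is the union of counted exons.

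Counts were filtered with filterByExpr (minimum count 10, total 15), TMM-normalized and tested with the quasi-likelihood test of edgeR 4.0.16 in R 4.3.3, condition as the only term, Benjamini-Hochberg adjustment over 15657 genes, threshold 0.05. The authors named the exact test of edgeR, run here as an alternative, as was DESeq2 1.42.0. Standard errors were taken from the F statistic. The script was tested on simulated data. The genes and lists were chosen with earlier results of these data known.

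Libraries with the same number deviated together from their condition means (correlations across genes of 0.338, 0.422 and 0.575), so a replicate block was also fitted. Replicates of one condition differed by more than sampling noise (chi-square per degree of freedom of 6.38 or more). Pathway genes were named as the largest called change each way per list at a mean of at least 100 counts, plus FLT1, KDR and FLT4. The other pathway genes in the text were named after their values were seen. Promoter windows are those of RefSeq.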

Additional observations from a re-analysis of the deposited data

How the results depend on the processing

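Hypoxia exceeded normoxia for the 10 genes under all 15 alternatives run: another test (edgeR's exact test, DESeq2), other factors (upper-quartile, RLE), every gene with at least 1 count, the replicate block, and libraries or replicate numbers left out. The number called higher was 10 in the first 6 of these and 7 to 10 with libraries left out, and 0 were called lower in any. VEGFA (4.27 to 4.51 on the log2 scale), PGF (4.50 to 5.07), ANGPTL4 (4.21 to 4.63), NRP1 (2.85 to 3.32), ADM (2.46 to 2.85), VEGFC (1.97 to 2.43) and PDGFB (1.5 to 1.94) passed the threshold in all 15. With libraries left out, VEGFB ranged from 0.38 to 0.51, EDN1 from 0.23 to 0.28 and NRP2 from 1.35 to 2.65, and the threshold was missed in 1, 6 and 5 of 9 such fits, with adjusted p up to 0.0508, 0.238 and 0.115. These fits have fewer samples. Upper-quartile factors raised EDN1 to 0.41 and VEGFB to 0.62, with the median of all genes up by 0.157. With the replicate block, all 10 genes kept their calls, and the other pathway genes went from 22 to 25 higher and from 8 to 11 lower, FLT1 and ECE2 among those gained. Pathway genes called ranged from 16 to 24 higher and 3 to 11 lower with libraries left out (5 lower without hypoxia replicate 1 or 2, 3 without both libraries numbered 1 and 4 without both numbered 2), and reached 26 higher with every gene that had at least 1 count. The log2 difference of the VEGFA to VEGFB ratio was 3.77 to 4.06 and that of NRP1 to NRP2 0.38 to 1.58 with a library left out, and no exact test of 3 libraries against 3, or of sign flips over 3 pairs (smallest p = 0.25), can pass the threshold. Depth limits KDR, VEGFD and the other genes that were not tested, and NRP2 among the 10.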

Other observations

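Further secreted factors and receptors of vessel biology were higher in hypoxia, named after their values were seen. EPO, which encodes erythropoietin and is a textbook target of HIF-2, had 3, 1 and 0 counts in normoxia and 47, 40 and 102 in hypoxia, or 1.16, 1.09 and 1.12 CPM. EFNB2, an ephrin ligand known from arterial endothelium, was at 10.4, 7.18 and 6.33 CPM in normoxia and 49.1, 35.2 and 38.2 CPM in hypoxia (log2-fold change 2.35, adjusted p = 1.22e-04). EGFL7, a secreted factor known from endothelial cells, went from 7.14, 7.23 and 7.82 CPM to 15.7, 13.9 and 22.3 CPM (log2-fold change 1.23, adjusted p = 9.48e-04). MET, the receptor of hepatocyte growth factor, rose from 2.51, 4.89 and 3.00 CPM to 6.10, 7.03 and 12.0 CPM (log2-fold change 1.28, adjusted p = 0.011), while its ligand gene HGF had 0 counts in every library. In each of these genes the hypoxia libraries lay above the normoxia libraries, which was also true of 34.9% of all tested genes. The 4 calls held in the 15 alternatives run. Because the genes were picked from these same values, neither is independent support. EPO passed the filter on low counts only through its hypoxia libraries.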
